A study of Mus musculus with 21 samples.

Results

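The genes examined encode the cytosolic machinery that detects foreign nucleic acid: the RNA helicases Ddx58 (RIG-I), Ifih1 (MDA5) and Dhx58 (LGP2), the adaptor Mavs, the Z-form nucleic acid sensor Zbp1, the ubiquitin ligase Trim25, and the kinases Tbk1 and Ikbke. These 8 of the 25067 genes in the table were chosen by name, with earlier results of these data known. All 8 passed the filter on low counts that left 12529 genes for testing. They were followed in bone marrow-derived macrophages from male C57Bl6/J mice aged 6 to 12 weeks, either WT or labelled Nur77-KO. Nur77, encoded by Nr4a1, is an orphan nuclear receptor induced by inflammatory signals. Marrow cells of both genotypes were matured for 7 days with 15% L929-conditioned medium, the usual source of macrophage colony-stimulating factor, and received 100 ng/ml lipopolysaccharide (LPS), which signals through Toll-like receptor 4, for 0, 4 or 18 h. Each time had 4 WT libraries, numbered 1 to 4, and 3 labelled-KO libraries, numbered 2 to 4, which makes 21 in all. The genotype tag of the labelled-KO samples reads cre. Neither the cell type in which a Cre would act nor whether each number is a separate mouse is stated, so the spread behind each p-value is that between libraries, which may be technical.

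RIG-I and MDA5 bind double-stranded or otherwise foreign RNA in the cytosol and then assemble the mitochondrial adaptor MAVS into filaments, while LGP2, which lacks the signalling domains, tunes both. TRIM25 attaches ubiquitin chains to RIG-I. MAVS recruits the kinases TBK1 and IKKε, the product of Ikbke, which phosphorylate the transcription factors IRF3 and IRF7 and so switch on type I interferon genes. ZBP1 binds left-handed Z-RNA and Z-DNA and can start necroptosis through RIPK3. Most of these genes are themselves interferon-inducible, and in macrophages LPS sets off interferon-β through the adaptor TRIF.

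Start-site sequence was at hand for 6 of the 8 genes, in windows running from 250 bases before the annotated start to 50 bases after it (RefSeq, GRCm38.p6), and not for Dhx58 and Zbp1. The windows were searched on both strands for the core of the interferon-stimulated response element (a GAAA pair separated by any 2 bases) and for the NF-κB consensus. Ddx58 is shown because it alone was called between genotypes at every time, Ifih1 because it held the other match, and Mavs because it alone fell after LPS. Capitals mark the matches to the core, on the opposite strand in Ddx58 and on the gene's own strand in Ifih1. The Ddx58 stretch (chr4:40239814-40240075, minus strand) runs from base -250 to base 12, the Ifih1 stretch (chr2:62646206-62646234, minus strand) from base 22 to base 50, and the Mavs stretch (chr2:131233813-131234062, plus strand) from base -250 to base -1.
Ddx58: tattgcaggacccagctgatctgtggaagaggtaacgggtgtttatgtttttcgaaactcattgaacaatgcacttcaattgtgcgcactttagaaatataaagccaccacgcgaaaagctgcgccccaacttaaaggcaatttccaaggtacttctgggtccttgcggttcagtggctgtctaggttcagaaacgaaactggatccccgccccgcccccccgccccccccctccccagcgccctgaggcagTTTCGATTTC
Ifih1: agaagagaatcGAAACAGAAAccgatctg
Mavs: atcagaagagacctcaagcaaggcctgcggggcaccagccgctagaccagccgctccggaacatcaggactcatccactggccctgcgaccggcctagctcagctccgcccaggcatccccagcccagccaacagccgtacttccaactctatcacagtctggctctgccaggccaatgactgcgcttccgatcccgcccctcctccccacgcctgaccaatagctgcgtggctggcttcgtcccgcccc
No match to the core was found in the windows of Mavs, Trim25, Tbk1 or Ikbke, and none to the NF-κB consensus in any of the 6 genes. Over all 32851 annotated windows of this length, 3.44% held the core and 4.51% the NF-κB consensus. Such a match is a run of letters, not a measured binding site.

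Gene totals ran from 12301504 to 29650081 estimated counts per library, and the 8 genes held between 108 and 71342 counts in any library. Levels are given as CPM, counts scaled to library sizes adjusted by the trimmed mean of M-values (TMM), and levels of different genes are compared only as CPM per kilobase of transcript. All 8 macrophage markers checked were detected in every group, with summed levels of 12274 to 23500 CPM, whereas B and T cell markers summed to at most 1.21 CPM. Summed markers of neutrophils and their precursors were higher in the labelled-KO libraries at 0 h (67.5 to 117 against 18.9 to 35.9 CPM) and at 18 h (318 to 449 against 183 to 267 CPM). Most of the sum at 18 h was Lcn2 (mean 182 CPM in WT and 291 CPM in labelled-KO). Lcn2 rose with LPS in both genotypes, from 1.53 CPM in WT and 6.61 CPM in labelled-KO at 0 h. Summed stromal markers at 18 h were 46.8, 219 and 939 CPM in labelled-KO libraries 2 to 4 and 18.0 to 64.0 CPM in WT, so library 2 lay within the WT range. In bulk libraries, fewer cells of a type and less RNA per cell cannot be told apart. Nr4a1 was lower in every labelled-KO library than in every WT library at 0 h (12.2 to 12.4 against 13.4 to 16.2 CPM), a log2 difference of -0.25 that was not called (edgeR adjusted p = 0.75). It was called lower in labelled-KO at 4 h (log2 -1.77, edgeR adjusted p = 0.040) and higher at 18 h (log2 1.35, edgeR adjusted p = 0.023). The deleted part of the gene is not known here, so its total does not check the labels, and the genotypes are named as labelled throughout.

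LPS moved all 8 genes in both genotypes. In WT at 4 h, 7 genes rose and Mavs fell, where 78.1% of all tested genes were called (35.1% higher and 43% lower). A gene was called at an adjusted p under 0.05 in edgeR's quasi-likelihood test with p-values adjusted by the Benjamini-Hochberg method over the 12529 genes. The same 7 genes rose and Mavs fell in WT at 18 h (background 71.1%, with 34.8% higher and 36.3% lower), in labelled-KO at 4 h (75%, with 33.5% higher and 41.5% lower) and in labelled-KO at 18 h (73%, with 34.5% higher and 38.5% lower). In each of these comparisons the libraries of every member were separated without overlap. The share of all tested genes separated in this way was not computed. The median log2 change of the 8 genes was 2.97 in WT at 4 h against -0.17 over all tested genes. At 18 h it was 1.96 against -0.05, and in labelled-KO it was 3.00 against -0.14 at 4 h and 2.13 against -0.08 at 18 h. With upper-quartile scaling the median over all genes moved to -0.52 in WT and -0.47 in labelled-KO at 4 h, and the share of higher genes among those called went from 45.0 to 32.6% and from 44.7 to 33.4%. At 18 h in WT the median moved to -0.23 and that share from 48.9 to 38.6%. No call on the 8 genes was lost in these comparisons under that scaling.

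**Figure D1:**
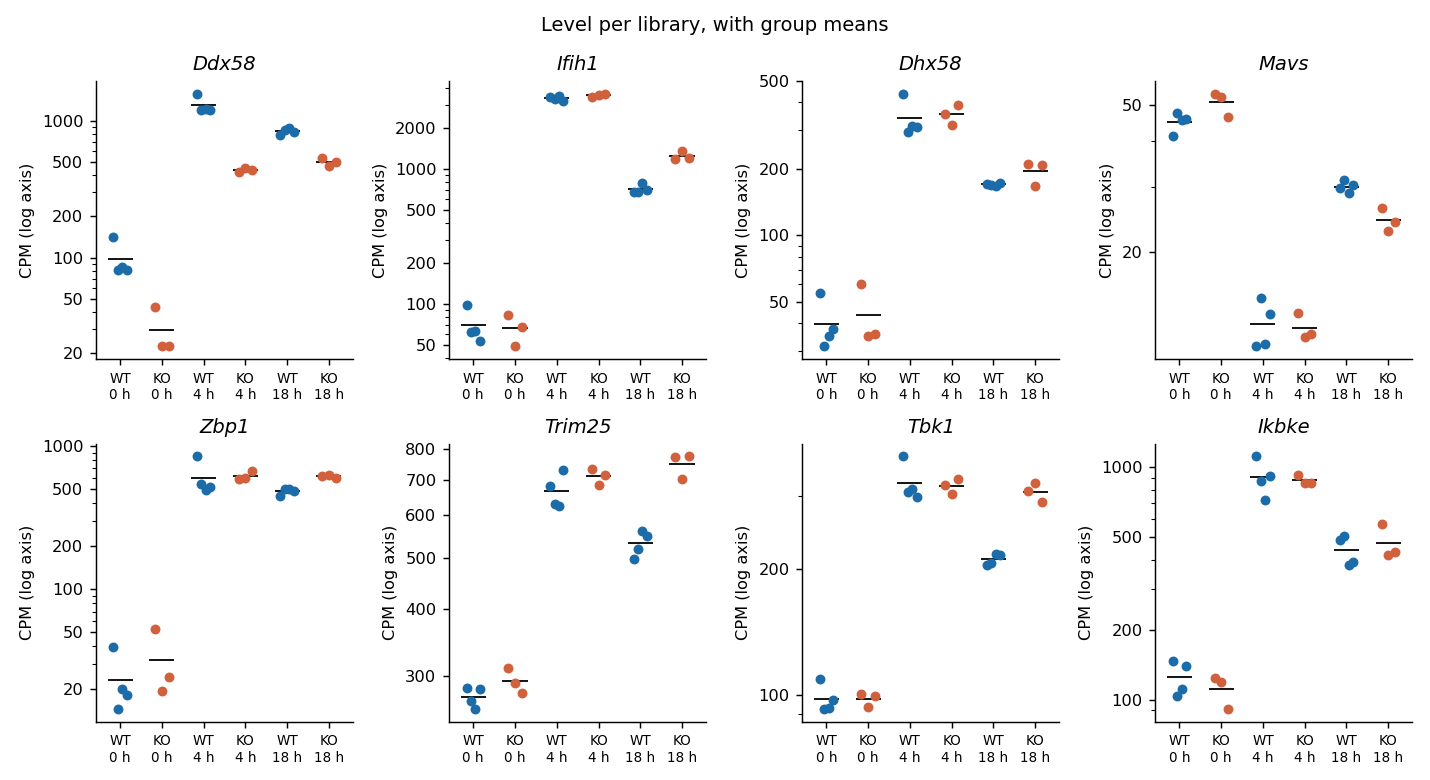
Level of each gene in every library, in CPM on a log axis, by genotype and hours of LPS. Blue points are the 4 WT and orange points the 3 labelled-KO libraries of a time, and black bars are group means. Ddx58 is the gene whose labelled-KO points lie below the WT points at all 3 times, and Mavs (mean 45.0 CPM in WT at 0 h, 12.7 at 4 h) is the one that drops after LPS.

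Ddx58 (NM_172689, chr4:40203777-40239825 in mm10) encodes RIG-I, which recognises short double-stranded RNA with a 5′ triphosphate. Before LPS it stood at 142, 81.5, 85.6 and 81.0 CPM in WT libraries 1 to 4 and at 43.5, 22.4 and 22.4 CPM in labelled-KO libraries 2 to 4. At 4 h the values were 1584, 1208, 1220.1 and 1203 CPM in WT and 420.3, 453 and 435 CPM in labelled-KO. At 18 h they were 792, 865, 882 and 825 CPM in WT and 533, 467 and 497 CPM in labelled-KO. Every labelled-KO library was below every WT library of its time, and at 0 h WT library 1 and labelled-KO library 2 stood above the rest of their groups. The log2 difference of labelled-KO from WT was -1.73 at 0 h (SE 0.21, 95% interval -2.18 to -1.29, edgeR adjusted p = 1.6e-05), a 3.33-fold lower level. It was -1.58 at 4 h (SE 0.20, interval -2.01 to -1.15, edgeR adjusted p = 4.8e-05) and -0.75 at 18 h (SE 0.20, interval -1.17 to -0.33, edgeR adjusted p = 0.0063). When each library was left out in turn, the difference at 0 h lay between -2.13 and -1.49 and was called each time. Settings chosen after the data were seen gave -1.88 without both high libraries (edgeR adjusted p = 7.1e-09) and -1.74 with a stromal marker score as a covariate (edgeR adjusted p = 6.3e-05). The libraries left out were the highest of their groups in Ddx58 itself, so leaving them out narrows the spread behind that p-value. At 0 h neutrophil and precursor markers were higher in labelled-KO, in 7 of 7 tested, and markers of dividing cells lower in 5 of 6. Their part in the difference was not tested.

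Among the 8 genes, Ddx58 was the only member called between genotypes at 0 h, where 3.98% of all tested genes were called (1.11% higher, 2.87% lower), and again at 4 h, where 5.56% were (2.87% higher, 2.7% lower). The range of the other 7 differences was -0.17 (Ikbke) to 0.46 (Zbp1) on the log2 scale at 0 h and -0.04 (Ikbke) to 0.09 (Trim25) at 4 h. Their intervals differed in width: at 4 h that of Tbk1 ran from -0.20 to 0.14, while that of Zbp1 ran from -0.55 to 0.64. After 4 h of LPS, Ddx58 rose by 3.74 on the log2 scale in WT (SE 0.20) and by 3.89 in labelled-KO (SE 0.24), which differ by 0.15 with an interval of -0.44 to 0.75. From 4 to 18 h Ddx58 fell by 0.63 in WT (SE 0.18, edgeR adjusted p = 0.0036). Its change of 0.19 in labelled-KO was not called, although every library at 18 h lay above every library at 4 h. The difference between these steps, a contrast added after the values were seen, was not called either (0.83, edgeR adjusted p = 0.058).

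**Figure D2:**
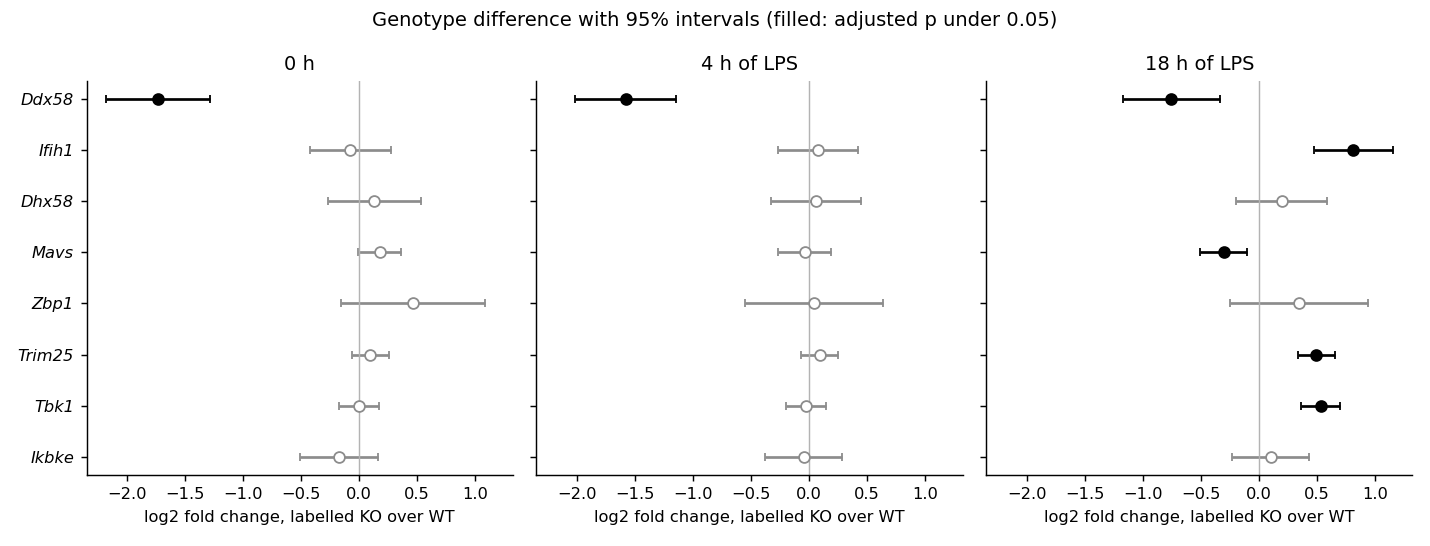
Log2 difference of labelled-KO from WT for each gene at 0, 4 and 18 h of LPS, with 95% intervals built on the edgeR estimates. Filled points passed the adjusted threshold and open points did not. Ddx58 is filled and below 0 at every time, from -1.73 to -0.75, and Ifih1, Trim25 and Tbk1 are filled and above 0 at 18 h.

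Ifih1 (NM_027835, chr2:62595618-62646255) encodes MDA5, the sensor of long double-stranded RNA. It had the largest rise of the 8 genes at 4 h, from 99.3, 62.4, 63.4 and 53.8 CPM to 3402, 3283, 3499 and 3195 CPM in WT, a 47.9-fold change (log2 5.58, SE 0.18). In labelled-KO it went from 83.2, 48.7 and 67.2 CPM to 3425, 3538 and 3610.4 CPM (log2 5.73, SE 0.21). The genotypes overlapped at both times. They parted at 18 h, when WT libraries had come down to 681, 679, 787 and 702 CPM and labelled-KO libraries to 1182, 1369 and 1207 CPM without overlap. The difference was 0.81 (SE 0.16, interval 0.47 to 1.16, edgeR adjusted p = 0.00068), a 1.76-fold higher level in the direction opposite to Ddx58.

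Dhx58 (NM_030150, chr11:100694884-100704271), which encodes LGP2, rose at 4 h from 39.7 ± 10.3 to 339 ± 66.7 CPM in WT (SD, n = 4) and from 43.7 ± 14.6 to 353 ± 37.3 CPM in labelled-KO (SD, n = 3). WT library 1 was the highest of its group at 0 and 4 h, at 54.7 and 438 CPM. By 18 h the levels were 170 ± 2.03 and 195 ± 24.9 CPM. The genotypes overlapped at all 3 times, and the difference at 18 h was 0.20 with an interval of -0.19 to 0.59.

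Within each library, Ddx58 was also set against the mean of Ifih1 and Dhx58 on the log2 CPM scale, where only differences between groups are compared because the genes differ in length. At 0 h this ratio was 0.94, 0.88, 0.86 and 0.85 in WT and -0.70, -0.88 and -1.12 in labelled-KO. At 4 h it was 0.37, 0.29, 0.23 and 0.27 in WT and -1.39, -1.22 and -1.44 in labelled-KO. At 18 h it was 1.21, 1.35, 1.28 and 1.25 in WT and 0.09, -0.03 and -0.02 in labelled-KO. WT library 1 and labelled-KO library 2 at 0 h, which stood apart in Ddx58 itself, lay close to their groups in this ratio. The genotypes did not overlap at any time, with differences of -1.78, -1.64 and -1.26. Each had a two-sided exact permutation p of 0.0286, the smallest that 35 assignments allow, and 0.0571 after Benjamini-Hochberg adjustment over 6 such tests, which does not pass 0.05.

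**Figure D3:**
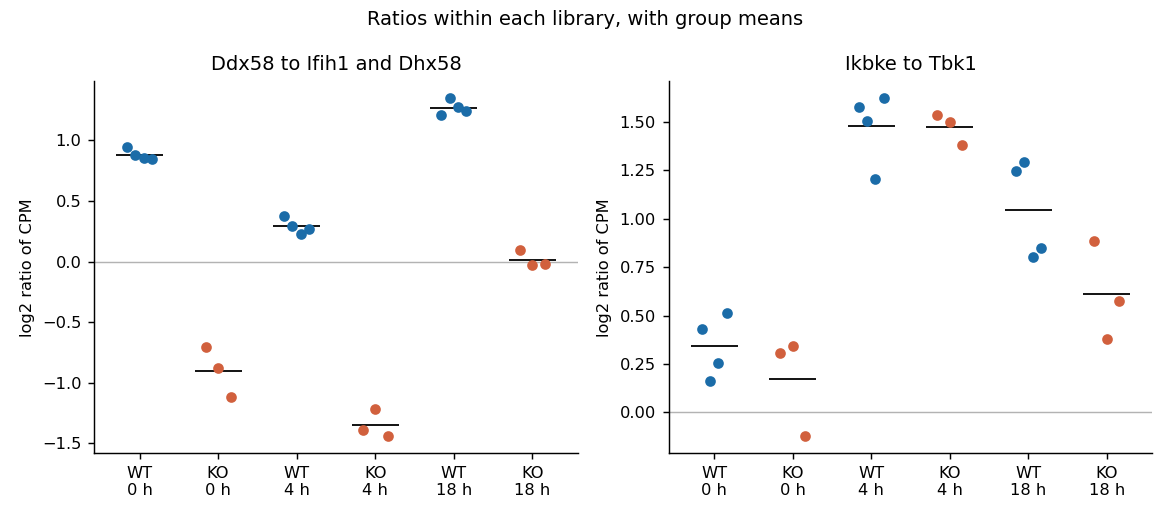
Log2 ratio of Ddx58 to the mean of Ifih1 and Dhx58, and of Ikbke to Tbk1, in every library by hours of LPS, with WT in blue, labelled-KO in orange and bars for group means. The sensor ratio leaves a gap between genotypes at each time (mean 0.29 against -1.35 at 4 h), while the kinase ratio overlaps at all 3 times.

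Mavs (NM_144888, chr2:131234063-131248025) encodes the adaptor shared by RIG-I and MDA5 and was the only member that fell after LPS. Its WT libraries held 41.1, 47.5, 45.6 and 45.7 CPM at 0 h, 11.1, 15.0, 11.2 and 13.6 CPM at 4 h and 29.8, 31.2, 28.9 and 30.2 CPM at 18 h. Labelled-KO libraries held 53.6, 52.5 and 46.4 CPM, then 13.6, 11.7 and 11.9 CPM, then 26.2, 22.8 and 24.1 CPM. The fall at 4 h was 3.54-fold in WT (log2 -1.82, SE 0.09) and 4.10-fold in labelled-KO (log2 -2.04, SE 0.11), and both genotypes had regained part of it by 18 h. At 18 h the labelled-KO level was lower by 0.30 on the log2 scale (log2 difference -0.30, SE 0.10, edgeR adjusted p = 0.019), with no overlap. That call was lost without labelled-KO library 3 (log2 -0.26, edgeR adjusted p = 0.073) or library 4 (log2 -0.30, edgeR adjusted p = 0.066).

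Trim25 (NM_009546, chr11:88999403-89020294), the RIG-I ubiquitin ligase, had the highest level per kilobase at 0 h and the smallest rise of the 7 genes that rose. At 18 h its WT libraries held 496, 519.5, 561 and 549.7 CPM and its labelled-KO libraries 772, 702 and 774 CPM. Every labelled-KO library exceeded every WT library, a log2 difference of 0.49 (SE 0.075, interval 0.34 to 0.65, edgeR adjusted p = 5.2e-05). In WT the level had come down from 667 ± 49.0 CPM at 4 h (SD, n = 4; log2 change to 18 h -0.33, SE 0.07, edgeR adjusted p = 0.00027). In labelled-KO it stood at 711 ± 24.9 CPM at 4 h and 749 ± 41.2 CPM at 18 h (SD, n = 3), a change of 0.08 that was not called.

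Tbk1 (NM_019786, chr10:121546455-121586794) encodes the kinase that acts below MAVS, STING and TRIF alike. Its levels at 4 h were 373, 307, 312 and 297 CPM in WT and 318, 303 and 328 CPM in labelled-KO, which overlapped. At 18 h they were 205, 207, 218 and 217 CPM in WT against 308, 323 and 289 CPM in labelled-KO. From 4 to 18 h, WT fell (log2 change -0.61, SE 0.07, edgeR adjusted p = 2.4e-07), and the log2 change in labelled-KO was -0.05 with an interval of -0.23 to 0.14. The genotype difference at 18 h was 0.53 (SE 0.079, interval 0.37 to 0.70, edgeR adjusted p = 4.2e-05).

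Ikbke (NM_019777, chr1:131254600-131279601), which encodes the inducible partner kinase IKKε, rose from 125 ± 21.1 to 905 ± 162 CPM in WT at 4 h (SD, n = 4) and from 111 ± 17.7 to 879 ± 37.1 CPM in labelled-KO (SD, n = 3). It came down by 18 h in both genotypes, to 441 ± 65.7 and 473 ± 83.2 CPM, with log2 changes from 4 h of -1.04 and -0.89. The genotypes overlapped at every time, and the difference at 18 h was 0.10 with an interval of -0.23 to 0.43. Set against Tbk1 within each library on the log2 scale, Ikbke differed between genotypes by -0.17 at 0 h, -0.0046 at 4 h and -0.43 at 18 h. None of these passed (two-sided exact permutation p = 0.371, 0.971 and 0.171, adjusted 0.446, 0.971 and 0.257).

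Zbp1 (NM_021394, chr2:173206612-173218959), the Z-form nucleic acid sensor, had the lowest mean level per kilobase in WT at 0 h. At 4 h it had the steepest rise after Ifih1. Its WT libraries went from 39.4, 14.6, 20.1 and 18.4 CPM to 849.5, 548, 494 and 520.4 CPM at 4 h (25.9-fold, log2 4.70, SE 0.30), and its labelled-KO libraries from 52.8, 19.5 and 24.4 CPM to 591, 595 and 675 CPM (19.3-fold, log2 4.27, SE 0.35). WT library 1 and labelled-KO library 2 were again the high ones at 0 h. From 4 to 18 h it had no called change in either genotype (log2 -0.31 in WT and -0.01 in labelled-KO). At 18 h the labelled-KO libraries (624, 628 and 596 CPM) all lay above the WT libraries (447, 501, 505 and 487 CPM), but the log2 difference of 0.34 had an interval of -0.25 to 0.94 and was not called (edgeR adjusted p = 0.37). The fit over all 6 groups shares its estimate of spread between them. As a percentage of the mean, the SD of Zbp1 was 48.0 at 0 h, 27.5 at 4 h and 5.40 at 18 h in WT. In labelled-KO it was 55.8, 7.64 and 2.89. Fitted on the 18 h groups alone, the genotype difference was called (log2 0.35, edgeR adjusted p = 0.0049), and the cause of that change was not tested.

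Per kilobase, the order of the genes in WT before LPS was Trim25 (49.1 CPM per kb), Ikbke (38.5), Tbk1 (32.4), Ddx58 (25.2), Dhx58 (16.5), Mavs (14.7), Ifih1 (12.7) and Zbp1 (11.6). Only Trim25 was clear of its neighbour, and the ranges of all later neighbours overlapped. At 4 h the WT order was Ifih1 (611 CPM per kb), Ddx58 (337), Zbp1 (303), Ikbke (278), Dhx58 (141), Trim25 (119), Tbk1 (107) and Mavs (4.16). Here Ifih1 and Mavs were clear of the rest, Ddx58, Zbp1 and Ikbke overlapped in turn, and so did Dhx58, Trim25 and Tbk1. In labelled-KO, Ddx58 held the last place at 0 h (7.60 CPM per kb, overlapping Ifih1 at 12.1) and the sixth at 4 h (113, overlapping Tbk1 at 105). At 18 h the highest per-kilobase levels were those of Zbp1 and Ddx58 in WT (244 and 217, overlapping) and of Zbp1 and Ifih1 in labelled-KO (310 and 229, not overlapping).

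At 18 h 5 of the 8 genes differed between genotypes, with Ifih1, Trim25 and Tbk1 higher and Ddx58 and Mavs lower, where 32.2% of all tested genes were called (16.6% higher, 15.6% lower). The members' median difference was 0.27 and that over all genes -0.01. With a stromal marker score as a covariate, a setting chosen after the data were seen, the calls on Ddx58, Ifih1, Trim25 and Tbk1 held and that on Mavs was lost (log2 -0.29, edgeR adjusted p = 0.074). Stromal markers were higher in labelled-KO at 18 h in 6 of 7 tested. Neutrophil markers were higher in 5 of 7, and their part in these differences was not tested.

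Whether LPS acted differently in the genotypes was tested by interaction terms. For the response at 4 h none of the 8 genes was called, where 0.798% of all tested genes were; none of the 8 reached an unadjusted p of 0.05 in edgeR, and DESeq2 called none of them either. For the response at 18 h, 5 of 8 were called, 4 in the positive direction and 1 in the negative, against a background of 17.6% (8.57% and 9%). The rise of Ddx58 was larger in labelled-KO by 0.98 (17.0-fold against 8.62-fold, SE 0.28, edgeR adjusted p = 0.020), from its lower level at 0 h, and that call was lost without labelled-KO library 3 (0.82, edgeR adjusted p = 0.073) or 4 (0.81, edgeR adjusted p = 0.066) at 0 h. The rises of Ifih1, Trim25 and Tbk1 were larger by 0.89 (SE 0.23), 0.40 (SE 0.11) and 0.54 (SE 0.11), with edgeR adjusted p of 0.012, 0.013 and 0.0029. Mavs fell further in labelled-KO by 0.48 on the log2 scale (log2 1.06 against 0.58 lower), with an edgeR adjusted p of 0.015. That call was lost when WT library 1 and labelled-KO library 2 at 0 h were both left out (-0.40, edgeR adjusted p = 0.072). The other 4 calls held without them. At 0 h these were the highest libraries of their groups in every member but Mavs. In Mavs, WT library 1 was the lowest of its group (41.1 CPM) and labelled-KO library 2 the highest of its own (53.6 CPM).

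The step from 4 to 18 h was compared directly by a contrast added after the values were seen. In WT 7 of 8 genes changed over this step (background 71.7%, with 37.2% higher and 34.5% lower), 6 lower and Mavs higher. In labelled-KO 4 of 8 did (background 65.4%, with 33.3% higher and 32.1% lower), with Ifih1, Dhx58 and Ikbke lower and Mavs higher. The genotypes differed in that step for Tbk1 (0.56, SE 0.11, edgeR adjusted p = 0.0028), Trim25 (0.40, SE 0.11, edgeR adjusted p = 0.018) and Ifih1 (0.74, SE 0.23, edgeR adjusted p = 0.042), where 10.8% of all tested genes were called (6.26% positive, 4.58% negative). For Ddx58 the difference was 0.83, with an edgeR adjusted p of 0.058. The call on Ifih1 was lost in 11 fits, with values of 0.67 to 0.77. These were most of the fits that left out 1 library of the groups compared. The call on Trim25 was lost in 1 such fit (without labelled-KO library 3 at 4 h, 0.38, edgeR adjusted p = 0.051).

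The other genes around Ddx58 were read because its difference was present at 0 h. Within 1 Mb of Ddx58, 25 other genes were in the table and 14 were tested. None of the 14 was called at 0 h (log2 differences of -0.16 to 0.29), where 3.98% of all tested genes were, or at 4 h (-0.39 to 0.27), where 5.56% were. At 18 h 5 of 14 were called, a share near the 32.2% over all tested genes, with Chmp5 (0.26) and Ube2r2 (0.33) higher and Aco1 (-0.39), Nfx1 (-0.24) and Nol6 (-0.98) lower in labelled-KO.

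**Figure D4:**
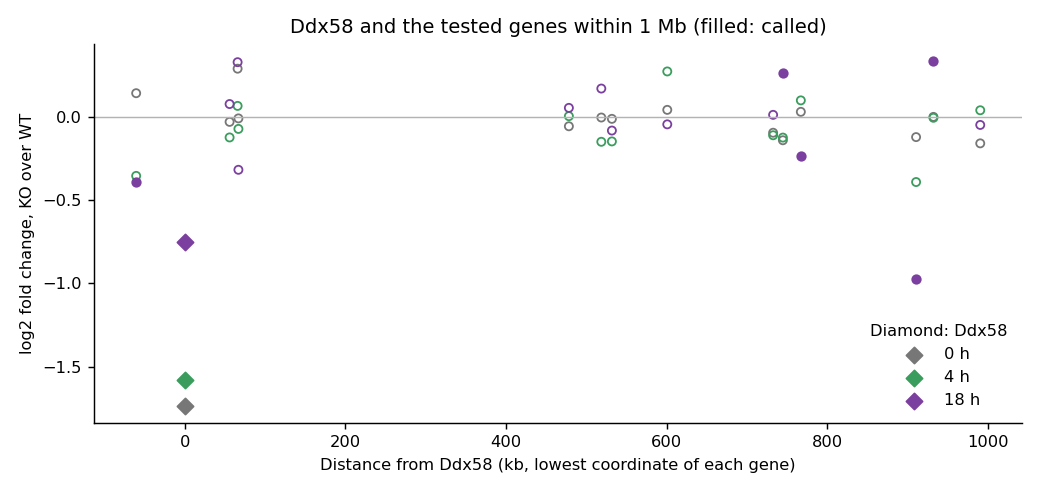
Log2 difference of labelled-KO from WT for Ddx58 and the 14 tested genes that lie within 1 Mb of it, by distance between the lowest coordinates of each gene and of Ddx58, at 0, 4 and 18 h. Filled points passed the adjusted threshold. At 0 and 4 h Ddx58 is the only filled point, at -1.73 and -1.58.

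Over the 21 libraries the 7 genes that rose moved together as described by Pearson's r of log2 CPM, which is driven mainly by the shared LPS times. Among the 6 other than Ddx58, r was 0.94 to 0.99 over 15 pairs. With Ddx58 it was 0.84 to 0.90, and Mavs was negatively related to all 7 (-0.95 to -0.77). Among genes with a mean of at least 5 CPM, the most alike to Ddx58 were Ifi209 (r = 0.983), Trim34a (0.977) and Ifi211 (0.971). For Ifih1 they were Dtx3l, Sp140 and Gbp5 (each 0.999), for Dhx58 Irgm1 (0.996), Gm12250 (0.995) and Trafd1 (0.995), and for Zbp1 Xaf1 (0.997), Lgals9 (0.996) and Gbp6 (0.996). Tbk1 was most like Cenpj (0.995), Usp42 (0.994) and Trim21 (0.994), and Ikbke like Ccdc167 (0.993), Lacc1 (0.992) and Nfkbiz (0.991). Trim25 was most like Sco1 (0.990), Phf11c (0.988) and Coro2a (0.987), and Mavs like Natd1 (0.992), Slc26a11 (0.991) and Tgfbrap1 (0.990).

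The rest of the pathway was read from 6 lists of named genes, also chosen with earlier results of these data known. Their counts stand against the shares called over all tested genes: 35.1% higher and 43% lower in WT at 4 h, and, between genotypes, 3.98% at 0 h, 5.56% at 4 h and 32.2% at 18 h (16.6% higher, 15.6% lower). Of 25 partners and regulators of MAVS, 16 rose and 7 fell in WT at 4 h, among them Irf7, the interferon-inducible transcription factor (log2 4.77), Tank, a scaffold for TBK1 and IKKε (3.30), and, in the other direction, Nlrx1, a mitochondrial inhibitor of MAVS (-2.14). Irf3 was not called at that time (-0.29). Between genotypes, none was called at 0 h and 1 at 4 h, Traf3, the ubiquitin ligase between MAVS and TBK1. Traf3 stood at 11.3 ± 1.24 CPM in WT (SD, n = 4) and 16.3 ± 1.69 CPM in labelled-KO (SD, n = 3), a log2 difference of 0.55 (edgeR adjusted p = 0.013). At 18 h, 9 of 25 were higher and 1 lower in labelled-KO (16.6% and 15.6% over all tested genes), with a median of 0.12. The largest differences were those of Zyx (log2 0.84) and of Tax1bp1, an autophagy receptor that restrains MAVS signalling (431 ± 31.0 against 743 ± 55.2 CPM, log2 0.79). Tank differed by 0.45 and Traf6 by 0.22, and the TBK1 adaptor Tbkbp1 was lower (-0.42).

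Among 16 other binders of double-stranded or foreign RNA, 13 rose and 2 fell in WT at 4 h. None was called between genotypes at 0 or 4 h (3.98% and 5.56% over all tested genes). At 18 h 8 of 16 were higher and 1 lower in labelled-KO (16.6% and 15.6% over all tested genes), with a median of 0.54. Ifit1, which binds RNA lacking a methylated cap, stood at 2188 ± 160 CPM in WT and 4326 ± 172 CPM in labelled-KO at 18 h (log2 0.98). The helicase Dhx9 was the member that was lower (log2 -0.33). This list had its highest mean level at 0 h in the same WT library 1 (mean log2 CPM 6.47) and labelled-KO library 2 (6.53).

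The 15 genes of cytosolic DNA sensing and nucleic acid clearance split in WT at 4 h, with 7 higher and 6 lower. None was called between genotypes at 0 or 4 h. At 18 h 4 of 15 were higher and 3 lower in labelled-KO (16.6% and 15.6% over all tested genes), with a median of -0.11. Aim2, the DNA sensor that forms an inflammasome, was higher (85.5 ± 3.08 CPM in WT, 170 ± 23.1 CPM in labelled-KO, log2 0.99), as were Samhd1 (0.52), Enpp1 (0.60) and Ifi35 (0.41). Dnase2a, the lysosomal DNase, was lower (-0.52), with Hmgb1 (-0.37) and Ddx41 (-0.36).

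Of the 7 genes of the ZBP1 death pathway, 4 rose and 2 fell in WT at 4 h, and none was called between genotypes at 0 or 4 h. At 18 h, when 16.6% of all tested genes were higher and 15.6% lower, the protease Casp8 (0.45), the necroptosis effector Mlkl (0.44) and the caspase-8 inhibitor Cflar (0.41) were higher in labelled-KO, with a median of 0.30. Of 10 tested genes of the interferon signal and its receptor, all 10 rose in WT at 4 h and none was called between genotypes at 0 or 4 h. At 18 h 6 of 10 were higher in labelled-KO, with a median of 0.43: the inhibitors Socs1 (27.7 ± 3.05 against 68.7 ± 26.7 CPM, log2 1.32) and Usp18 (0.57), the receptor chains Ifnar2 (0.51) and Ifnar1 (0.34), and the kinases Tyk2 (0.36) and Jak1 (0.34). Ifnb1 itself, interferon-β, held 3 counts over the WT group and 1 over the labelled-KO group at 0 h. It reached 11.8 ± 8.21 CPM in WT and 16.1 ± 3.41 CPM in labelled-KO at 4 h, and 4.87 ± 1.03 against 8.75 ± 1.81 CPM at 18 h, when the log2 difference of 0.85 was not called (edgeR adjusted p = 0.064). Of 7 endosomal sensing genes, 3 were higher in labelled-KO at 18 h and none at 0 or 4 h, with Tlr3, the endosomal sensor of double-stranded RNA, at 219 ± 13.7 CPM in WT and 411 ± 29.8 CPM in labelled-KO (log2 0.91). The median over all tested genes at 18 h was -0.01.

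**Figure D5:**
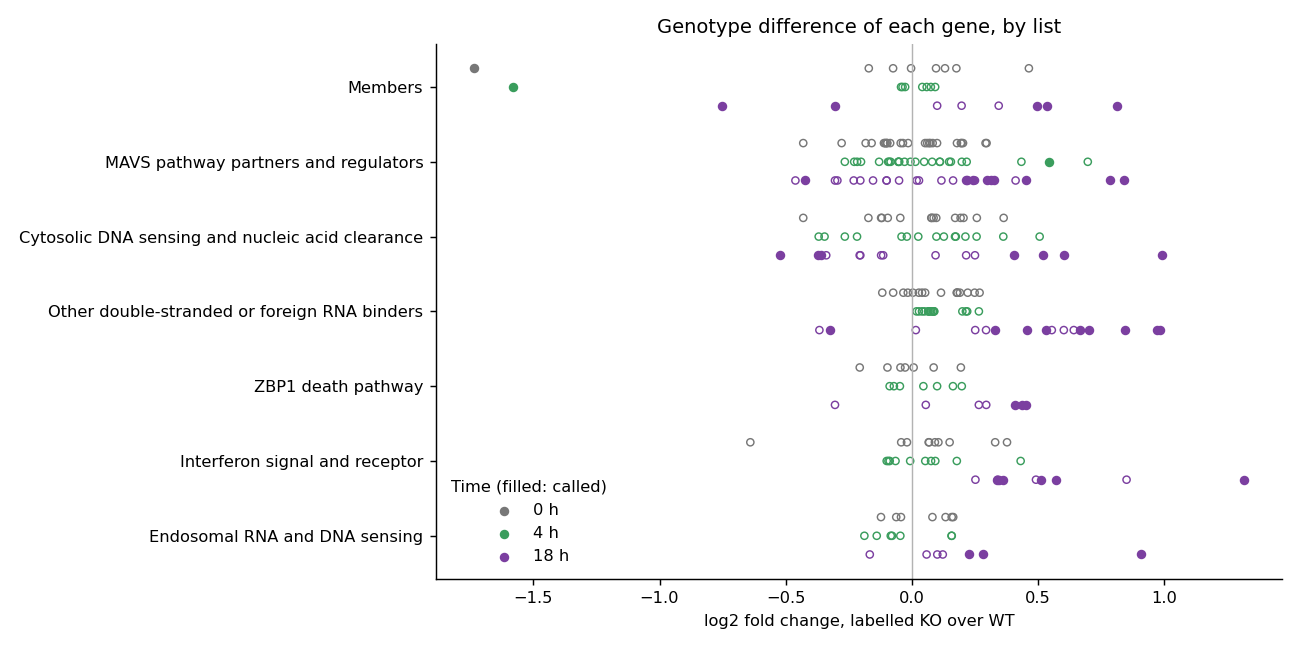
Log2 difference of labelled-KO from WT for the genes of the 6 pathway lists and the 8 members at 0, 4 and 18 h, with 1 point per tested gene, filled where it passed the adjusted threshold, and colours for the times. At 0 h Ddx58 is the only filled point (-1.73), at 4 h Ddx58 and Traf3 are (-1.58 and 0.55), and every list has filled points at 18 h.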

How the data were processed

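Poly(A) RNA was sequenced from 21 libraries. The submitters' processing notes list CASAVA 1.8.2, HISAT2 2.1.0 and mm10. No counting tool or strand setting is named in the sources used here. The authors deposited estimated counts for each RefSeq transcript, in multiples of 0.5. The plan had assumed whole counts, so values were rounded (those ending in 0.5 upward). Of 42361 transcripts, 42203 matched RefSeq names, 65 GENCODE names and 93 none. The unmatched ones (0.232 to 2.229% of counts) were left out, and the transcript with the highest mean stood for each gene. Deposited totals ran from 23478281.5 to 55852932 per library.

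Groups came from sample titles. edgeR 4.0.16 in R 4.3.3 was fitted to 6 group means over 12529 genes with TMM scaling, edgeR's default filter on low counts and Benjamini-Hochberg adjustment. Standard errors are the log2 fold change over the root of F. CPM used TMM library sizes, and log2 CPM a prior count of 2. Transcript lengths came from GENCODE. Ratios used exact permutation. The scripts were tested on simulated data. The members and lists were chosen with earlier results of these data known, and the contrast of 18 against 4 h was added after values were seen. From each list, up to 2 called genes of each sign with the largest change were to be named, and the other list genes were named after their values were seen. Values of 1 gene of these lists are not reported here. The 3 genes most like each member are named. Alternatives were DESeq2 1.42.0, limma-voom (limma 3.58.1), other scalings and filters, left-out libraries and a replicate block. Same-numbered WT libraries at 0 and 4 h correlated at 0.228 to 0.316 (others at -0.234 to 0.0878), so the numbers pair these groups. No other pair of groups passed the cut on the lowest same-numbered correlation. Labelled-KO at 4 and 18 h came nearest, at 0.0956 to 0.502 (others at -0.476 to 0.114). Missing the cut does not show that libraries are unpaired.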

Additional observations from a re-analysis of the deposited data

Results flagged for a closer look

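In groups of 4 libraries, 1 library stood far from the other 3 for 4 of 24 gene and group combinations. Chance alone flags about 1 in 20 separate groups, but these genes move together and share libraries. The combinations are therefore not independent, and the count is no test against that rate. All 4 cases were WT library 1: Ddx58 at 0 h (142 CPM) and 4 h (1584 CPM), Dhx58 at 4 h (438 CPM) and Zbp1 at 4 h (849.5 CPM).

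The response to 18 h of LPS differed between genotypes by the interaction test for Ddx58 (0.98 on the log2 scale), Ifih1 (0.89), Mavs (-0.48), Trim25 (0.40) and Tbk1 (0.54). The step from 4 to 18 h differed for Ifih1 (0.74), Trim25 (0.40) and Tbk1 (0.56).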

How the results depend on the processing

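Under 1856 alternative values of the 8 genes, no called value changed sign, 65 values that were called in neither setting did, and 25 calls were lost or gained. Without labelled-KO library 3 at 4 h, the contrast of 18 against 4 h called 1 gene in place of 3. Leaving out each library gave 1 to 3 genes called for that contrast, 4 to 5 for the interaction at 18 h and for the genotypes at 18 h, and the reported number for the other comparisons. For the ratio of Ddx58 to Ifih1 and Dhx58 it gave -1.88 to -1.67 at 0 h, -1.71 to -1.60 at 4 h and -1.29 to -1.23 at 18 h, and for Ikbke to Tbk1 -0.25 to -0.017, -0.095 to 0.044 and -0.57 to -0.32. Ddx58 passed in the contrast of 18 against 4 h with DESeq2 (0.86), limma-voom (0.82) and only the groups compared (0.82), and in labelled-KO from 4 to 18 h with only those groups (0.23). Trim25 passed in the latter with upper-quartile scaling (0.19). That scaling also took the share of higher calls over all genes in the contrast of 18 against 4 h from 57.7 to 46.3%. The causes were not tested.

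With the replicate number as a block, 1 member was called between genotypes at 0 h, 1 at 4 h and 5 at 18 h, as without it. In the contrast of 18 against 4 h the block added Ddx58 (0.79, edgeR adjusted p = 0.035), and it changed no other call on the 8 genes.

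Over all genes, DESeq2 called 197 for the interaction at 4 h against 100. Genotype calls at 4 h went from 697 to 272 with only the groups compared and to 402 with the stromal covariate, which also took those at 18 h from 4034 to 2607. Without WT library 1 and labelled-KO library 2 at 0 h, calls went from 499 to 263 at 0 h, and from 100 to 64 and 2202 to 1434 for the interactions at 4 and 18 h. Those 2 settings were chosen after seeing the data.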

Other observations

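Zbp1 had 2 transcripts in the table, chosen for a look after their values were seen. The estimated counts of the second (NM_001139519), as a percentage of those of NM_021394, were 51.8 ± 3.75 at 0 h, 46.9 ± 2.66 at 4 h and 41.3 ± 1.71 at 18 h in WT (SD, n = 4) and 55.3 ± 6.59, 47.9 ± 1.02 and 40.8 ± 1.21 in labelled-KO (SD, n = 3). The drop from 0 to 18 h was -10.5 points in WT (two-sided exact permutation p = 0.0286, adjusted 0.0571) and -14.5 points in labelled-KO (exact permutation p = 0.10). Both p-values are the smallest possible for these numbers of libraries. No outcome could have passed 0.05 after adjustment, so this test cannot decide. The libraries at 18 h lay below those at 0 h in both genotypes. Ifih1 (2 transcripts) and Mavs (4) also had several transcripts in the table, with similar counts within each library. How reads shared between transcripts were counted is not stated, so the Zbp1 percentage is not a share of isoforms.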
